A study of Rattus norvegicus with 10 samples.

Results

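Collagen chains and the enzymes that modify, cleave and cross-link them were followed in the neurointermediate lobe of the rat pituitary after water deprivation. Genes entered by symbol: every symbol of the form Col, a number, a and a number, together with Lox, Loxl1, Loxl2, Plod1, Plod2, Plod3, P4ha1, P4ha2, Serpinh1 and Pcolce. A probe set, the group of short probes that reads 1 transcript on the array, counted only where the platform annotation gave it exactly 1 such symbol. The rule gave 51 genes, 41 chains and 10 enzymes or helpers, of 14217 genes on the array, read by 72 probe sets. Each gene was represented by its probe set with the highest mean signal over all 10 arrays. Of the 51 genes, 41 were in the brighter 60% of the array by mean log2 signal and were tested.

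RNA came from male Sprague Dawley rats of 10 to 12 weeks that had been dehydrated for 3 days, and from control rats of the same sex, strain and age. Each group had 5 arrays of the Affymetrix Rat Genome 230 design, version 2.0, and each array carried RNA of 5 pooled animals. Every SD below is a spread between arrays, in which differences between pools and between array measurements cannot be told apart. The p-values rest on such spreads and not on differences between single animals. The labels describe a dissected lobe with no sort of cells. It holds the neural lobe, where axons of hypothalamic neurons end among glial pituicytes and blood vessels, and the intermediate lobe of melanotrophs; the supraoptic nucleus appears in the design text of the series, but the sample labels were followed. Signals are linear intensities that the authors had scaled to a common level, and changes are differences of log2(signal + 5), dehydrated minus control.

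Collagens are built from chains that wind into a triple helix, either from copies of 1 chain or from partner chains. In the endoplasmic reticulum, prolyl and lysyl hydroxylases modify the chains and the chaperone encoded by Serpinh1 holds the helix together; outside the cell the ends are cleaved, and lysyl oxidases join the finished molecules. Fibrillar collagens make up connective tissue, type IV collagen forms the network of basement membranes around vessels, and type VI collagen forms beaded filaments near cell surfaces.

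After dehydration 6 members rose and 1 fell at a limma adjusted p of 0.05, while 34 did not pass. The chains Col13a1, Col6a3, Col4a1 and Col6a1 and the cross-linking enzymes Lox and Loxl1 were the 6. Their increases were 1.42-fold to 1.92-fold, taken from the log2(signal + 5) values and not from the linear means. Col2a1, the chain of cartilage collagen, was the member that fell, to 0.512 of the control level on the same scale. Over the whole array 2.46% of 18625 tested probe sets were called, 1.68% higher and 0.784% lower. Among the 41 tested members 17.1% were called. The median change was 0.12 over the members and -0.01 over all tested probe sets. In 10 of the 41 members all dehydrated arrays lay on 1 side of all control arrays, against 4.59% of all tested probe sets; 6 of the 10 lay higher and 4 lower, against 2.78% and 1.81%.

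**Figure D1:**
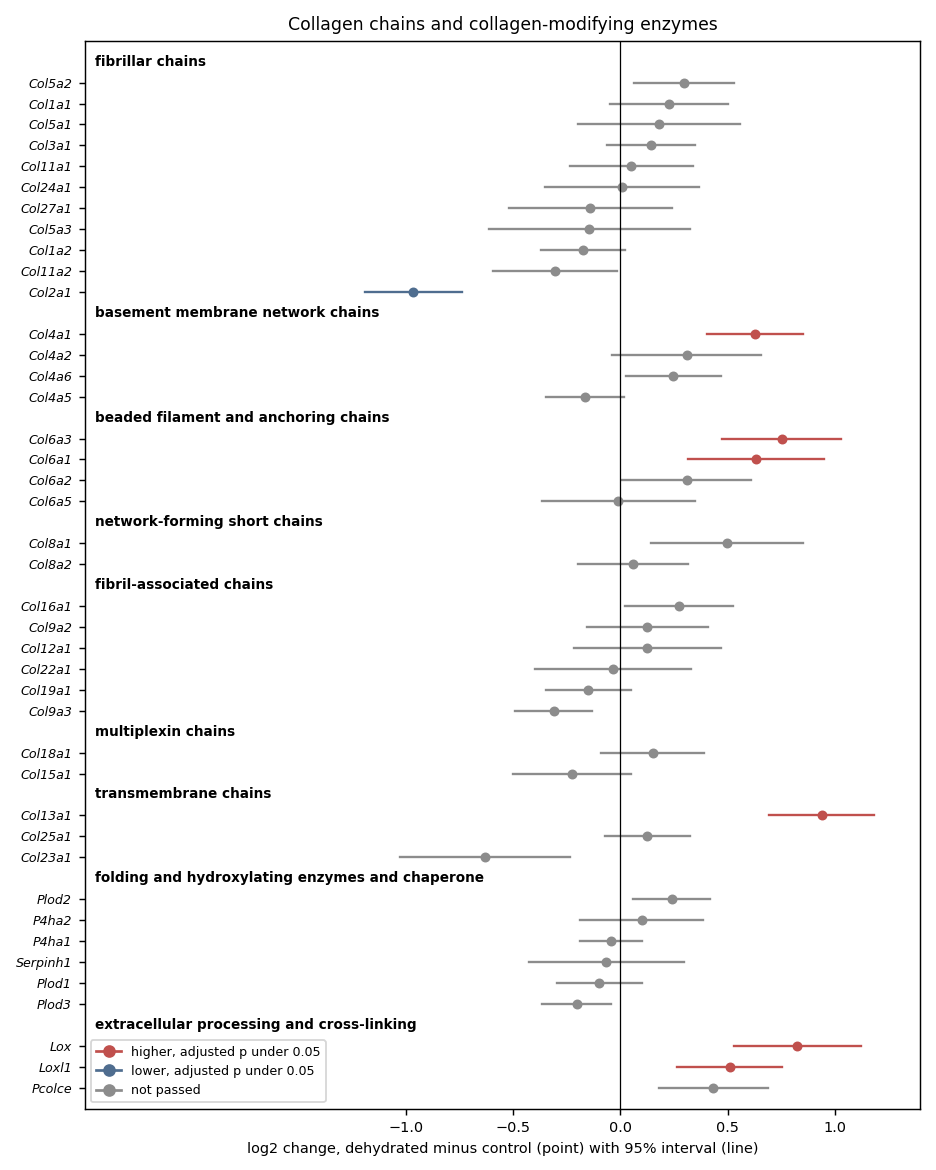
Log2 change of the 41 tested members, dehydrated minus control (horizontal axis), in 9 structural classes; points are estimates, lines 95% intervals, and colours mark the limma call. The 6 members called higher lie in 4 classes, and Col2a1 lies alone at the left at -0.97.

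Several measures of the arrays and of cell types stand beside these counts. The log2 ratio of 3' to 5' signals of GAPDH and beta-actin, which is larger in shortened RNA, averaged 2.15 ± 0.38 over dehydrated and 1.78 ± 0.48 over control arrays (SD, n = 5; p = 0.214, exact permutation, two-sided). Among markers of fibroblasts and meninges 12 were tested, 5 rose and none fell. The summed signal of the 14 listed genes was 13168 to 15328 on dehydrated arrays against 9442 to 10678 on control arrays. Mgp, among those that rose, averaged 5104 on dehydrated and 2544 on control arrays. In the same list Igf2, Ogn and Dpt had changes of -0.37, -0.15 and -0.13 and did not pass. Pdgfra, Ptgds, Aldh1a2 and Fbln1, at 0.37, 0.23, 0.14 and 0.11, did not pass either. Of 8 tested endothelial markers 3 rose, Kdr, Flt1 and Emcn, with a summed signal of the list of 1246 to 1504 against 850.2 to 1144. Pecam1, Cldn5 and Tie1, at changes of -0.01, -0.05 and -0.26, did not pass. Neither did Tek and Esam, at 0.26 and 0.16. Pituicyte and astroglial markers summed to 6873 to 7808 on dehydrated arrays and to 6030 to 6795 on control arrays. In that list 11 were tested, 4 rose and none fell. Melanotroph markers summed to 6897 to 7577 on dehydrated and to 7801 to 8603 on control arrays. Here 7 were tested, only Pcsk2 fell and none rose. None of the sums in this paragraph stands for a shift of a whole list. In such bulk RNA, more cells of a type and more RNA per cell cannot be told apart, and the part of these markers in the collagen changes was not tested.

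Col13a1 had the largest increase of the tested members. It encodes a transmembrane collagen, which is anchored in the plasma membrane and found at sites of cell adhesion (Entrez Gene 499431). Its signals were 228.2, 292.2, 311.5, 276.4 and 295.4 on the dehydrated arrays, against 139, 163, 147.3, 107.8 and 166.6 on the control arrays. The lowest dehydrated array lay well above the highest control array. Means were 281 ± 31.9 and 145 ± 23.5 (SD, n = 5). From the log2(signal + 5) values the difference was 1.92-fold (log2 change 0.94 ± 0.12 SE, limma adjusted p = 0.000259). The call stood under all 22 alternatives, with log2 changes of 0.84 to 1.01.

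Because this increase was the largest, the 250 bases before the annotated start of Col13a1 are shown, from RefSeq on build GRCr8 (chr20:30466801-30467050, minus strand, 5′ to 3′); capitals mark the motif TATAAA, searched on both strands.
Col13a1: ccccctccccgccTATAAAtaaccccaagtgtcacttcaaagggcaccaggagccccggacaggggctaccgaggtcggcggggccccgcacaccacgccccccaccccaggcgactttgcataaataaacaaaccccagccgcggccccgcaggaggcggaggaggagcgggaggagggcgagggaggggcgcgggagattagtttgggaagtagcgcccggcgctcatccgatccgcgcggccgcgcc
The motif lies at the far end of the window from the start. It occurs in 12.9% of 33469 such windows in the table, so its presence here is only a description.

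The other transmembrane chains did not pass. Col23a1 had 78.8 ± 23.5 on dehydrated and 125 ± 33.4 on control arrays (SD, n = 5), with a log2 change of -0.63 (95% interval -1.03 to -0.23, limma adjusted p = 0.0880). Without the dehydrated array numbered 5, which had the lowest 3' to 5' ratio of its group, it passed at -0.78 (adjusted p = 0.0136). In that setting 1156 probe sets passed over the whole array, against 458 with all arrays, and p-values are adjusted over all tested probe sets. With the 3' to 5' ratio in the model the change of Col23a1 was -0.40 (adjusted p = 0.265). Col25a1, first known from amyloid plaques of human brain, had a change of 0.13 (adjusted p = 0.524).

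Type VI collagen is assembled from an alpha 1, an alpha 2 and an alpha 3 chain, and 2 of these partner chains rose. Col6a3 (Entrez Gene 367313) had signals of 150.3, 157, 227.2, 161.1 and 244 on dehydrated arrays, against 104, 116.8, 107.4, 94.9 and 114.3 on control arrays. The groups did not overlap, and dehydrated arrays 3 and 5 lay far above the other 3. Means were 188 ± 44.1 and 107 ± 8.71 (SD, n = 5), and the log2 change was 0.75 ± 0.13 SE with a limma adjusted p of 0.00468. A second, very dim probe set of Col6a3 was not tested; with both averaged the change was 0.35 and did not pass (adjusted p = 0.300).

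Col6a1 (Entrez Gene 294337) had signals of 131.8, 104.3, 190.8, 143.3 and 191.2 on dehydrated arrays, against 102.2, 93.3, 106.1, 75.9 and 96 on control arrays. Dehydrated arrays 3 and 5 were again the highest, and dehydrated array 2 fell within the control range. The log2 change was 0.63 ± 0.15 SE (limma adjusted p = 0.0331). The call ended without dehydrated array 1, 3 or 4, without control array 2, 3, 4 or 5, without an intensity trend or without the filter on dim probe sets (adjusted p 0.0512 to 0.112), while the change lay between 0.54 and 0.75 over all 22 alternatives.

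Col6a2, the alpha 2 partner, had 90.2, 83.7, 83, 120.2 and 126.9 on dehydrated arrays, against 76.8, 78.5, 102.6, 75.6 and 66 on control arrays. These groups overlapped through 1 control array. Its change of 0.31 did not pass (95% interval 0.01 to 0.61, limma adjusted p = 0.277). Its second probe set, which was dimmer, had a change of -0.04, and the average of both was 0.13 (adjusted p = 0.606). The change of Col6a1 exceeded that of Col6a2 by 0.32 (exact two-sided permutation p = 0.119, 0.233 adjusted over 8 pairs of chains), and the change of Col6a2 lay 0.44 below that of Col6a3 (exact p = 0.0635, 0.169 adjusted), so neither difference passed; Col6a1 and Col6a3 were not compared with each other. Col6a5, an alpha chain that can take the place of alpha 3, had a change of -0.01 (limma adjusted p = 0.984).

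The 100 bases before the starts of the partner genes that rose were set beside each other (RefSeq, GRCr8, Col6a3 at chr9:98886959-98887058 on the minus strand and Col6a1 at chr20:11905590-11905689 on the plus strand, 5′ to 3′). The motif TATAAA was not found in either stretch, on either strand. A CCAAT box was absent from both, and so was the motif GGGCGG. None of these motifs lay in the full 250 bases before either start, a length at which CCAAT occurs in 34.0% of windows.
Col6a3: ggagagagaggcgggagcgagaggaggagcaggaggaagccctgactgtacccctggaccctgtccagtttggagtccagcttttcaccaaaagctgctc
Col6a1: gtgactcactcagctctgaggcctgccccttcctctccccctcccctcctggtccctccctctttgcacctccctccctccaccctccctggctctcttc

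**Figure D2:**
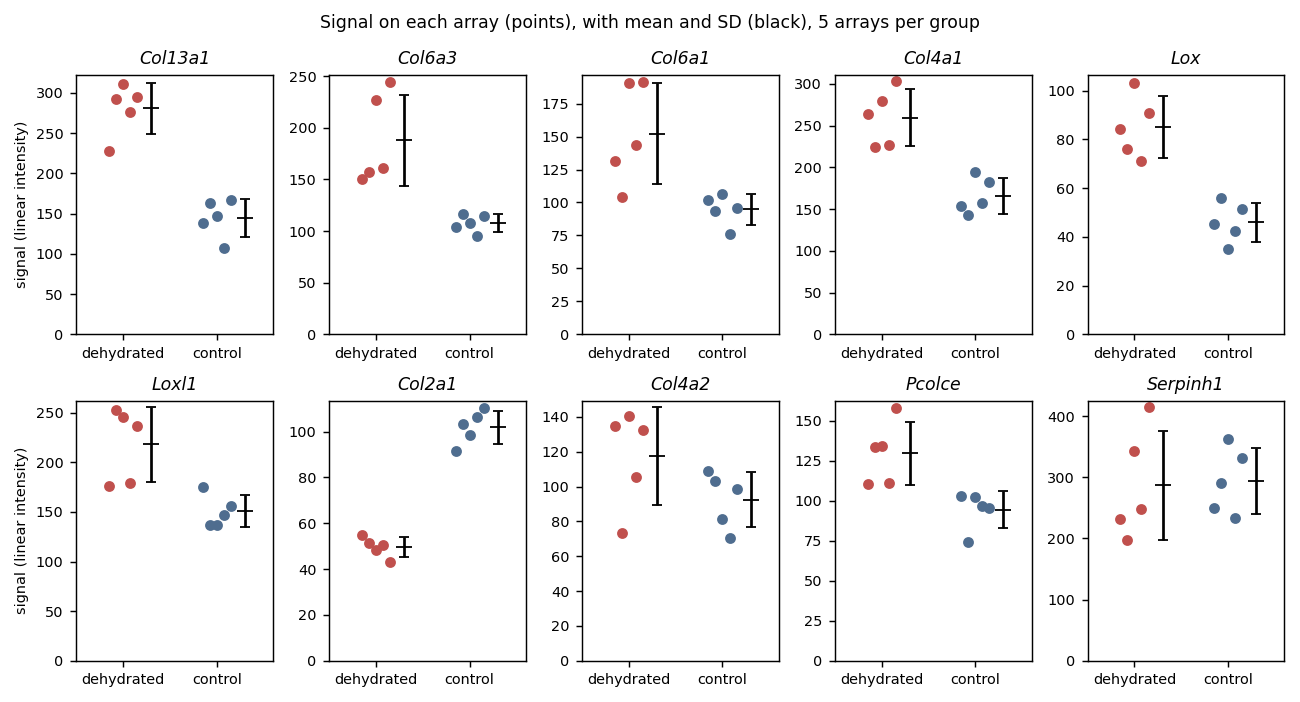
Signal (linear intensity, axes from 0) on each of 5 dehydrated and 5 control arrays for the 7 called members and for Col4a2, Pcolce and Serpinh1; black marks are means with SD. For Col13a1, Col6a3, Col4a1, Lox, Loxl1 and Pcolce every dehydrated array lies above every control array, for Col2a1 every one lies below, and for Serpinh1 the groups overlap widely.

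Among basement membrane chains, Col4a1 rose. It encodes the alpha 1 chain of the network found in nearly all basement membranes (Entrez Gene 290905). Its signals were 264.1, 224.4, 279, 226.2 and 303 on dehydrated arrays, against 153.6, 143.2, 193.8, 156.7 and 182.2 on control arrays. No dehydrated array came down to the control range. Means were 259 ± 34.0 and 166 ± 21.2 (SD, n = 5). From the log2(signal + 5) values the difference was 1.55-fold (log2 change 0.63 ± 0.11 SE, limma adjusted p = 0.00381). The call for Col4a1 stood under all 22 alternatives, with changes of 0.49 to 0.73. Its second probe set had a change of 0.35 with overlapping groups (adjusted p = 0.241).

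Col4a2 encodes the partner chain of Col4a1 in the same trimer, and had 134.6, 73.4, 140.6, 105.7 and 132.7 on dehydrated arrays against 108.7, 102.9, 81.2, 70.6 and 98.7 on control arrays. Dehydrated array 2 was among the lowest of all 10 arrays. The change of 0.31 did not pass (95% interval -0.04 to 0.66, limma adjusted p = 0.346). The change of Col4a1 exceeded that of Col4a2 by 0.32, which did not pass either (exact two-sided permutation p = 0.159, 0.233 adjusted over 8 pairs).

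These genes lie head to head and are read outward from a shared stretch, with Col4a1 on the plus and Col4a2 on the minus strand of chromosome 16. The 76 bases between their annotated starts (RefSeq, GRCr8, chr16:84885521-84885596, plus strand, 5′ to 3′) are shown because they are common to the partner that rose and the partner that did not pass; capitals mark GGGCGG, here on the opposite strand.
Col4a1 and Col4a2: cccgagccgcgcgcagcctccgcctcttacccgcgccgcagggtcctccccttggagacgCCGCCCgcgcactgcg
GGGCGG, a GC box, occurs in 30.5% of the 250-base windows before all annotated starts, and in 24 of the 40 members with an entry, some with several starts. Those windows are longer than this stretch, and for both genes they also hold CCAAT. Neither TATAAA nor CCAAT lies between the starts, and nothing was drawn from this about any factor.

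Col4a5 and Col4a6, another head-to-head pair of this family, on the X chromosome with 1414 bases between the starts, did not pass. Col4a5 had a change of -0.17 (95% interval -0.35 to 0.02, limma adjusted p = 0.340) and Col4a6 of 0.25 (95% interval 0.02 to 0.47, adjusted p = 0.240), against -0.0025 by its second probe set. The vessel-associated chains Col15a1 and Col18a1, whose C-terminal fragments are known as inhibitors of vessel growth, had changes of -0.23 and 0.15 (adjusted p = 0.392 and 0.531). Col8a1, a short chain of vessel walls and other basement membranes, had 151 ± 44.0 on dehydrated and 103 ± 20.04 on control arrays (SD, n = 5; change 0.50, adjusted p = 0.132). Without dehydrated array 5, where more of the whole array passed, it passed at 0.60 (adjusted p = 0.0408). Its change was 0.35 without dehydrated array 2 (0.257) and 0.30 with the 3' to 5' ratio in the model (0.395). Its relative Col8a2 had a change of 0.06.

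The 3 tested genes that act outside the cell had positive changes. Lox, the lysyl oxidase that starts covalent cross-links between collagen and elastin molecules (Entrez Gene 24914), had signals of 84.3, 76.2, 103.2, 71.2 and 90.7 on dehydrated arrays, against 45.4, 55.8, 34.9, 42.6 and 51.3 on control arrays. Groups lay apart from each other. Means were 85.1 ± 12.6 and 46.0 ± 8.05 (SD, n = 5). From the log2(signal + 5) values the difference was 1.77-fold (log2 change 0.83 ± 0.14 SE, limma adjusted p = 0.00392). This call also stood under all 22 alternatives, with changes of 0.65 to 0.89. The second probe set of Lox had a change of 0.48, again with no overlap, but did not pass (adjusted p = 0.0856).

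Loxl1, a lysyl oxidase known mainly for elastic fibres (Entrez Gene 315714), had signals of 176.2, 253.2, 246.2, 178.8 and 236.9 on dehydrated arrays, against 175.5, 137.3, 136.4, 147 and 156.4 on control arrays. Dehydrated arrays 1 and 4 lay just above control array 1. The change was 0.51 ± 0.12 SE (limma adjusted p = 0.0260). The call ended without dehydrated array 2 or 3, without control array 2, 3 or 4, with the RNA ratio above added to the model, without an intensity trend or without the filter (adjusted p 0.0509 to 0.0923), at changes of 0.45 to 0.51. Loxl2, another member of the family, was too dim to be tested, at 1.7 to 11.7 on dehydrated and 1.6 to 7.7 on control arrays.

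Pcolce, a secreted glycoprotein that speeds the removal of the C-terminal propeptide of fibrillar procollagen, had 110.5, 134, 134.3, 111.1 and 158.4 on dehydrated arrays, against 102.9, 74.5, 102.2, 96.8 and 95.7 on control arrays. All dehydrated arrays were higher, by a narrow margin. Its change of 0.43 ± 0.12 SE narrowly did not pass (95% interval 0.18 to 0.69, limma adjusted p = 0.0674), and it passed with median centring (adjusted p = 0.0480) or with all genes averaged over their probe sets (0.0490), while the adjusted p was up to 0.161 under the other alternatives.

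Inside the cell, none of the 6 genes for hydroxylation and folding passed, and their changes ran from -0.20 to 0.24. Serpinh1, the chaperone specific for procollagen, had 231.2, 197.2, 343.9, 248.6 and 414.3 on dehydrated arrays, against 249.3, 291.4, 363.3, 233.5 and 331.7 on control arrays. The dehydrated group held both the highest and the lowest value. The change was -0.07 (95% interval -0.43 to 0.30, limma adjusted p = 0.885), and 0.17 with the 3' to 5' ratio in the model (0.645). The probe set's name ends in _s_at, Affymetrix's mark for probes that match several transcripts, so its signal may include other transcripts.

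P4ha1, a catalytic subunit of prolyl hydroxylase, had 274, 285.2, 281.2, 257.6 and 288 on dehydrated arrays, against 281.8, 298.8, 285, 293.8 and 270 on control arrays. This was a tight pair of groups, with a change of -0.04 and a 95% interval of -0.19 to 0.10. P4ha2, another such subunit, had a change of 0.10 (95% interval -0.19 to 0.39).

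Plod1, a lysyl hydroxylase that acts on helical lysines, had 119.6, 155.1, 148.4, 127.9 and 150.7 on dehydrated arrays, against 156.3, 155.1, 155.2, 146.7 and 137.1 on control arrays. The groups overlapped, with a change of -0.10 (limma adjusted p = 0.635). Plod2, the lysyl hydroxylase of the telopeptides, where lysyl oxidase acts, had 194.4, 215.9, 231.9, 200.1 and 202.3 on dehydrated arrays, against 178.8, 203.2, 169.3, 161.6 and 169.6 on control arrays. Only control array 2 reached into the dehydrated range, and the change of 0.24 did not pass (95% interval 0.06 to 0.42, adjusted p = 0.163). Plod3, which also adds sugars to hydroxylysine, had lower signals on every dehydrated array, 347 ± 21.8 against 401 ± 31.6 (SD, n = 5), but its change of -0.20 did not pass (adjusted p = 0.175).

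Of the 11 fibrillar chains, 1 fell and 10 did not pass, and the median change of this class was 0.01. Col2a1, the sole chain of type II collagen (Entrez Gene 25412), had signals of 55, 51.5, 48.5, 50.6 and 43.2 on dehydrated arrays, against 91.4, 103.4, 98.4, 106.3 and 110.1 on control arrays. Every dehydrated array lay far below every control array, and the spread within each group was small. The log2 change was -0.97 ± 0.11 SE (95% interval -1.19 to -0.74, limma adjusted p = 9.95e-05), and the call stood under the 21 alternatives that tested the gene, at -1.02 to -0.84. Another 2 probe sets of Col2a1 were too dim to be tested, with mean signals of 23.5 and 9.22 on dehydrated against 21.1 and 7.80 on control arrays, and with all 3 averaged the gene was no longer among those tested.

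Type II collagen is known from cartilage, where types IX and XI accompany it in the fibril. Of 8 cartilage markers with a probe set 2 were bright enough to be tested and neither passed. Their summed signal was 115 to 187 on dehydrated and 116 to 201 on control arrays, with the aggrecan gene Acan at 22.4 against 23.7 on average. Col9a3 had 436 ± 45.4 on dehydrated and 541 ± 46.2 on control arrays (SD, n = 5), with no overlap. Its change of -0.31 did not pass (95% interval -0.49 to -0.13, limma adjusted p = 0.0647). It passed in 5 of 22 alternatives, among them without dehydrated array 2 or 5 (adjusted p = 0.0447 and 0.0343). Without dehydrated array 5 more of the whole array passed as well. Without dehydrated array 1 the adjusted p of Col9a3 was 0.160.

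Col9a2, partner of Col9a3 in the type IX trimer, had a change of 0.13, and the change of Col9a2 exceeded that of Col9a3 by 0.44 (exact two-sided permutation p = 0.0159, 0.0635 adjusted over 8 pairs). The type XI chains Col11a1 and Col11a2 had changes of 0.05 and -0.30, neither of which passed (limma adjusted p = 0.887 and 0.264). The remaining chain of type IX, Col9a1, was too dim to be tested.

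The chains of the common connective tissue fibrils did not pass. Col1a1, the main chain of type I collagen, had 150.9, 120.3, 171.8, 110 and 175.7 on dehydrated arrays, against 104.8, 123.2, 139.1, 116 and 128.1 on control arrays. Dehydrated arrays 3 and 5 were the highest and the others lay within the control range or near it. The change was 0.23 (95% interval -0.05 to 0.50, limma adjusted p = 0.387).

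Col3a1, the chain of type III collagen in vessel walls and reticular fibres, had 769.6, 747.1, 1072.5, 871.5 and 1053 on dehydrated arrays, against 784.7, 871.5, 817.6, 788.5 and 780.2 on control arrays. Again dehydrated arrays 3 and 5 stood out, while the control arrays lay close together. The change was 0.14 (95% interval -0.06 to 0.35, adjusted p = 0.476).

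Col1a2, partner of Col1a1, had 467, 561.7, 519.4, 511.7 and 655.9 on dehydrated arrays, against 535.6, 580.8, 692.6, 617.1 and 634.2 on control arrays by the probe set with the higher signal. Its change was -0.17 (95% interval -0.37 to 0.02, limma adjusted p = 0.344). The second probe set gave 379 ± 44.2 on dehydrated and 307 ± 15.9 on control arrays (SD, n = 5), with no overlap and a change of 0.29 (adjusted p = 0.0760). Its 2 probe sets thus gave opposite signs, and their average gave 0.06 (adjusted p = 0.683). Without dehydrated array 5 and control array 1 together, where more of the whole array passed, the first probe set passed at -0.29 (adjusted p = 0.0439). With the 3' to 5' ratio in the model its change was -0.09 (0.748). By the probe sets of higher signal, the change of Col1a1 exceeded that of Col1a2 by 0.40, with no overlap between the groups. The exact two-sided permutation p was 0.00794, the smallest of the 8 pairs, and 0.0635 adjusted over them. This p is the smallest these groups allow, so 1 pair alone could not have passed after adjustment.

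For 11 members a second probe set was also tested, and the changes of both had the same sign in 6 and opposite signs in 5. Neither probe set passed in 9 of the 11; in Col4a1 and Lox the brighter one did. Col5a2, a chain of type V collagen that starts fibrils, had 534 ± 105 on dehydrated and 430 ± 44.3 on control arrays by the brighter probe set (SD, n = 5; change 0.30, limma adjusted p = 0.178), and a change of -0.05 by the other. The change by the brighter probe set exceeded the other by 0.35 (exact two-sided permutation p = 0.00794, the smallest these groups allow, and 0.0873 adjusted over 11 genes). For Col1a2 the difference was -0.47 (exact p = 0.0238, 0.131 adjusted). None of the 11 differences passed after adjustment. Even at the smallest exact p these groups allow, 1 difference alone could not have passed, so nothing is drawn from this. Col5a1, the partner of Col5a2, had changes of 0.18 and 0.22 by its probe sets and did not pass.

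**Figure D3:**
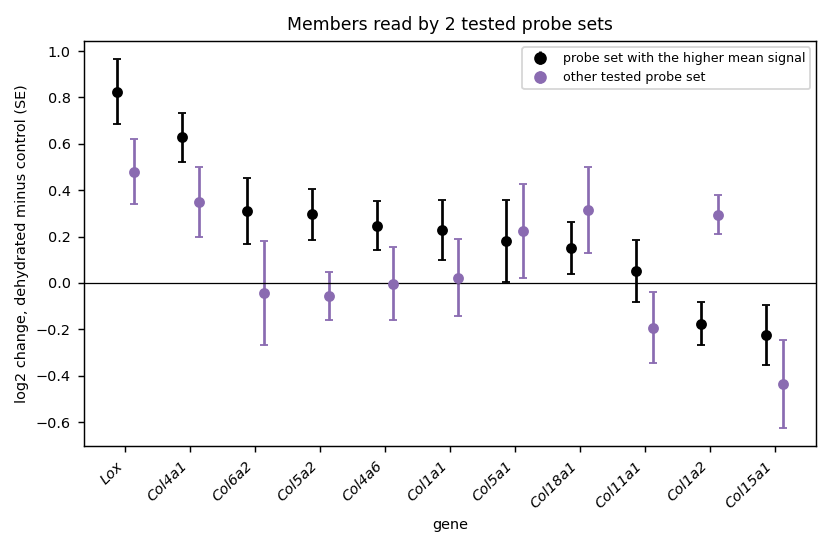
Log2 change, dehydrated minus control, with its standard error for the 11 members read by 2 tested probe sets; black points show the probe set with the higher mean signal, purple points the other. Lox and Col4a1 are positive by both, and Col1a2 lies at -0.17 by 1 probe set and at 0.29 by the other.

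Minor chains gave few differences. Of the 10 chains grouped here as fibril-associated, with Col26a1 placed among them only for counting, 6 were tested and none passed. Col16a1, a chain that bridges matrix components, had a change of 0.27 (95% interval 0.02 to 0.53, limma adjusted p = 0.247), and Col12a1, which binds the surface of type I fibrils, had 0.12. Of the 10 members that were too dim to be tested, 9 were chains: Col4a4, Col6a6, Col7a1, Col9a1, Col10a1, Col14a1, Col17a1, Col20a1 and Col26a1. Over these 10, Loxl2 included, signals were 0.5 to 27.7 on dehydrated and 1.4 to 26.1 on control arrays. Col7a1, the anchoring fibril chain of skin, had the largest difference of these, 7.1 to 27.7 on dehydrated against 1.4 to 14.8 on control arrays, with overlap.

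No array was the highest or the lowest of its group for all members, but some held these places more often than others. Dehydrated arrays 3 and 5 each held the highest dehydrated value for 13 of the 41 members, and dehydrated array 1 held the lowest for 15. On average over the members these arrays deviated from their group mean by 0.12, 0.09 and -0.08 on the log2 scale. Their 3' to 5' log2 ratios were 2.15, 1.61 and 2.27. Dehydrated array 4, lowest for 9 members, had the lowest mean deviation of its group, -0.11, at a ratio of 2.05. Among control arrays, array 2 held the highest value for 14 members, and array 4 the lowest for 12.

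**Figure D4:**
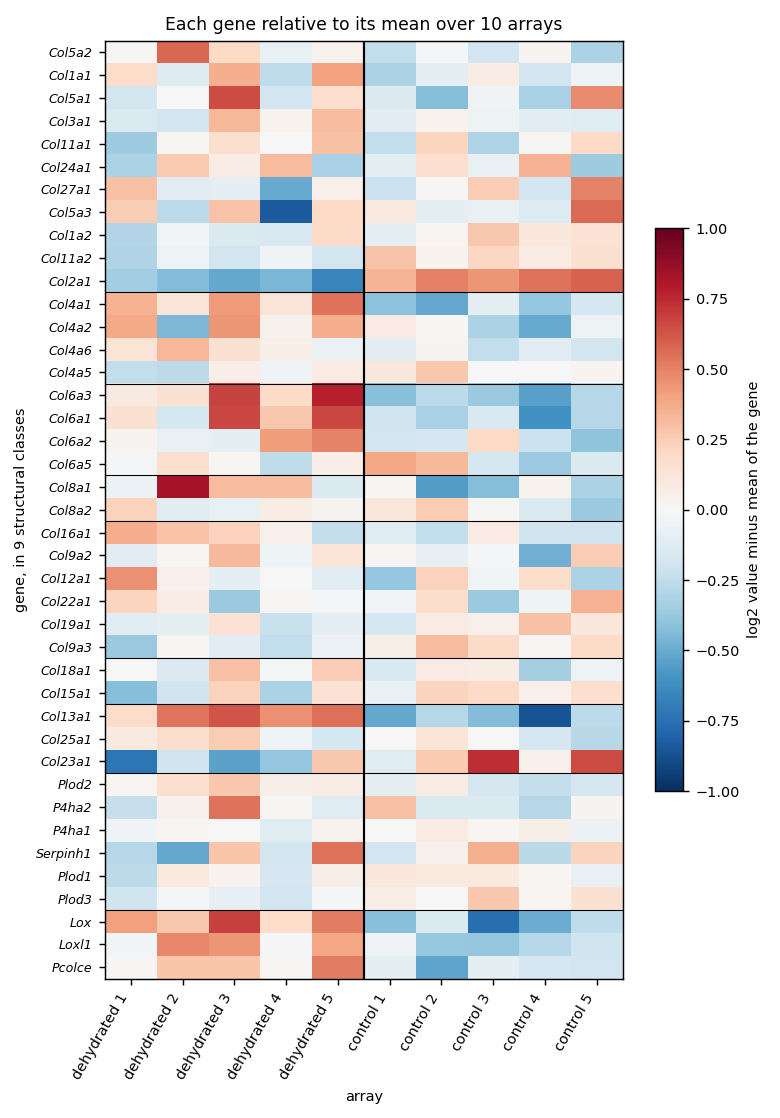
Log2 value of each tested member on each array minus the member's mean over 10 arrays, dehydrated arrays left of the line and control arrays right of it. Col13a1, Col4a1, Lox, Loxl1, Col6a3 and Col2a1 split at the line, while Col3a1 and Col1a1 are highest on dehydrated arrays 3 and 5.

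Chains that share a trimer or fibril were compared with each group's mean taken off. Over the 10 arrays, Col1a1 and Col3a1 had a Pearson r of 0.62 and a Spearman rho of 0.55 (exact permutation p = 0.216 and 0.232). Col1a1 and Col1a2 had an r of 0.46 and a rho of 0.39 (exact p = 0.259 and 0.350). Without the 2 arrays farthest from the median of the first chain, r was 0.54 for Col1a1 and Col3a1 and 0.81 for Col1a1 and Col1a2. For Col4a1 and Col4a2, r was 0.38 and rho 0.22 (exact p = 0.329 and 0.555), with an r of 0.52 without such arrays. For Col6a1 and Col6a2 r was 0.39 over 10 arrays and -0.02 without such arrays, and for Col6a2 and Col6a3 it was 0.19 and -0.33. For Col9a2 and Col9a3 r was 0.50, for Col5a1 and Col5a2 -0.15 and for Col8a1 and Col8a2 -0.41, and without such arrays 0.38, -0.04 and -0.38. None of the 8 pairs passed after adjustment over them (adjusted p 0.444 to 0.697 for r and 0.643 to 0.876 for rho), and none had an unadjusted exact p under 0.05.

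Other genes of collagen handling, outside the member rule, moved in part. Of 9 tested genes for folding and modification of procollagen, among them P4hb, Ppib and Mia3, none passed, and their median change was 0.02. Colgalt1, which adds galactose to hydroxylysine, had the smallest p of that list, at a change of 0.31 (limma adjusted p = 0.137). Of 3 tested genes for cleavage and cross-linking none passed; Bmp1, the C-proteinase of procollagen, had the smallest p, at a change of -0.34 (adjusted p = 0.317). Of 3 tested collagen receptor genes none passed either, the smallest p being that of the discoidin receptor gene Ddr1, at a change of -0.16 (adjusted p = 0.509).

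Of 11 tested fibril-binding proteoglycans and matricellular proteins 4 rose and none fell, with a median change of 0.03. Postn rose by 1.24, Lum by 0.55, Bgn by 0.49 and Dcn by 0.43 (limma adjusted p = 0.000829, 0.00253, 0.00468 and 0.00895). Bgn encodes biglycan, a small proteoglycan that binds collagen fibrils and had 178 ± 12.1 on dehydrated against 125 ± 8.80 on control arrays (SD, n = 5). Postn, Lum and Dcn also stand in the fibroblast list.

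Of 9 tested genes for collagen breakdown and uptake 1 rose and none fell. Fap, a serine protease of activated fibroblasts, had 54.6 ± 12.0 on dehydrated and 29.7 ± 4.27 on control arrays (SD, n = 5; change 0.77, limma adjusted p = 0.0148). The gelatinase gene Mmp2 and the membrane-bound matrix protease gene Mmp14 had changes of 0.45 and 0.33 and did not pass (adjusted p = 0.100 and 0.233), nor did the inhibitor gene Timp1 at 0.44 (adjusted p = 0.0527). These 3 were named after their values were seen.

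In the list of TGF-beta signalling to matrix genes, 11 were tested, of which 1 rose and 1 fell. Ccn2, which encodes connective tissue growth factor, had 671 ± 96.5 on dehydrated and 387 ± 40.05 on control arrays (SD, n = 5; change 0.78, limma adjusted p = 0.000291). Tgfb3, a ligand of the family, had 115 ± 20.4 on dehydrated and 185 ± 33.2 on control arrays (SD, n = 5; change -0.67, adjusted p = 0.0148). The median change of that list was -0.10.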

How the data were processed

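The deposited table holds 1 linear intensity per probe set and array. GCOS 1.2 is named in the submitters' processing notes; its settings and the genome build are not given in the sources used here. The authors had scaled every array, since the mean after trimming 2% at each end was 100 on all 10, and no further scaling was applied. All sample columns were used. Of 31099 probe sets, 57 controls were left out; of the other 31042, 20826 had 1 symbol, 436 several and 9780 none, and 20758 matched the RefSeq table of GRCr8 by gene ID, which changed 0 symbols. No background or detection values were used, so signal over background is unknown.

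Values were taken as log2(signal + 5), which understates changes of dim genes. The brightest 60% (18625) were fitted with limma 3.58.1 in R 4.3.3 (lmFit, then eBayes with its trend option; two-sided p-values adjusted by Benjamini-Hochberg over all of them). Single values were compared with exact permutation tests over all splits of the arrays, and correlations over 14400 orders within groups, in Python 3.11.15 with scipy 1.17.1. On simulated data for this comparison with 18625 probe sets, 38% of changes of 0.5, 88% of 1 and 98% of 2 (log2) were recovered. Of 171 calls 9 were false. The simulated noise was normal and independent between probe sets, so these rates need not hold for the real arrays. The members and lists were chosen with earlier results of these data known. Promoter entries matched 40 of 51 members. Named genes were all called members, 12 members fixed by name, other members by class, and for each list up to 4 called genes or the one with the smallest p. The labels give no replicate numbers, so arrays were numbered in deposition order, as names only. Alternatives changed normalization, pseudocount, filter, variance model, probe set choice, a covariate for RNA integrity, and the arrays included. Tests of differences between probe sets and between paired chains were added after the data were seen.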

Additional observations from a re-analysis of the deposited data

Results flagged for a closer look

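Of 82 groups of 5 arrays over the 41 tested members, 2 held an array far from the other 4, where chance gives about 1 group in 20. Col12a1, a chain that binds fibril surfaces, had a signal of 63 on dehydrated array 1, far above the other 4 dehydrated arrays at 41.1 to 46.3, beside 32.9 to 53.2 on control arrays. Pcolce, the enhancer of procollagen cleavage, had 74.5 on control array 2, far below the other 4 control arrays at 95.7 to 102.9; without that array its change was 0.36 and did not pass (limma adjusted p = 0.159).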

How the results depend on the processing

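Over 22 alternatives, 4 to 7 members were called higher and 1 to 4 lower. With the probe sets of each gene averaged, the 1 called lower was Col9a3, as Col2a1 was not tested there. Leaving out 1 array at a time gave 4 to 7 higher and 1 to 3 lower. Members called lower numbered 2 among the brightest 40% of probe sets, where Col9a3 was added, and 4 without dehydrated array 5 and control array 1, where Col1a2, Col23a1 and Col9a3 were added. The difference in 3' to 5' ratio, 0.37, was 0.242 to 0.557 with 1 array left out, and 0.692 without those 2 arrays; they hold the lowest dehydrated and the highest control ratio, so leaving them out widens this difference by construction, and it supports nothing. The count of probe sets called over the whole array, 458, was 218 without dehydrated array 3, 1156 without dehydrated array 5, 1398 without dehydrated array 5 and control array 1, and 240 without an intensity trend. The causes were not tested. Col13a1, Col4a1 and Lox kept their calls under all 22 alternatives. No paired analysis was run, since the labels name no pairing between dehydrated and control pools. Signal over background is unknown, which limits what the 10 dim members can show.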

Other observations

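Markers of other cells that make or surround collagen were also counted. Of 7 tested pericyte and smooth muscle markers 1 rose, Rgs5, a regulator of G protein signalling in pericytes, with a change of 0.72; the summed signal of the list was 622.7 to 758.7 on dehydrated and 591.2 to 662.6 on control arrays. Of 2 tested bone markers none passed, with sums of 124.9 to 193 on dehydrated and 103.3 to 228.3 on control arrays. Of 3 tested Schwann cell and myelin markers 1 rose, and the sums, 1754 to 2153 on dehydrated and 1679 to 2015 on control arrays, overlapped. Of 8 tested macrophage and microglia markers 1 rose, with sums of 1722 to 2559 on dehydrated and 1949 to 2460 on control arrays. Anterior lobe hormone genes, which mark tissue from the neighbouring lobe, summed to 4837 to 9424 on dehydrated and to 2587 to 7973 on control arrays, and 1 of 6 tested fell. The part of these levels in the collagen changes was not tested.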
